A study of Mus musculus with 4 samples.

Results

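Krüppel-like factors (KLFs) are zinc finger transcription factors that bind GC-rich and CACCC sequences. Blood flow along the vessel wall (laminar shear stress) induces *Klf2* and *Klf4* in endothelial cells through the kinases MEKK3 and ERK5 and the factors MEF2, and both then raise genes such as *Nos3* and *Thbd* and dampen inflammatory genes. Several KLFs are also early response genes that rise within minutes of enzymatic digestion of a tissue, so in sorted cells a level in the vessel and a response to the preparation are read together. The members described here are *Klf2*, *Klf3*, *Klf4*, *Klf6*, *Klf7*, *Klf9*, *Klf10* and *Klf13*, taken as a list of gene symbols matched to Ensembl identifiers, 8 of 46517 genes counted. All 8 passed the filter on low counts, as did 14978 genes in all.

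Ear skin of wild-type female C57BL/6J mice, labelled as 12 to 26 weeks of age (the study's methods give a younger range, and the difference was not settled) and pooled from 6 animals, was digested with collagenase IV for 20 min at 37 °C. CD31+/CD45-/Lyve1- cells, the gate for blood vascular endothelial cells (BECs), were sorted singly into 4 plates of 384 wells and profiled by Smart-seq2, which reads whole transcripts without molecular identifiers. Plates A and B form replicate 1 and a second pair of plates A and B replicate 2, and no treatment or genotype was compared, so the comparison lies between the vessel classes to which wells were assigned. Whether each replicate came from its own pool of mice was not settled, and p-values then measure only the spread between these 2 replicates.

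The plates held between 31864976 and 74739095 reads on genes, with medians of 142086.5 and 182926 reads per well in replicate 1 and 40324 and 42539.5 in replicate 2. Of 768 wells in each replicate, 351 of replicate 1 and 508 of replicate 2 passed the filters on depth, on endothelial genes and on genes of leukocytes and mural cells. The listed KLF, flow, immediate early and heat shock genes were left out of the clustering. It gave artery-like wells (16 in replicate 1 and 22 in replicate 2), capillary-like wells (141 and 20) and vein-like wells (54 and 36). Response genes outside these lists were not left out by name. *Il6*, *Rcan1* and *Gem*, on none of the lists, were among those highest by fold in the wells named vein-like. Whether such genes shaped this class was not tested. The clustering also gave lymphatic-like wells (22 and 111), although the gate was meant to leave out Lyve1+ cells. Of the 22 lymphatic-like wells of replicate 1, 16 formed a cluster of their own, and the other 6 joined the cluster that held all 111 of replicate 2. The name of each class rested on at least 8 markers that were higher in both replicates, or in the replicate that held the wells. A wider set of blood endothelial wells (292 and 268) also held wells that took no class name. The replicates differed in depth, in the number of wells per class and in reads of genes of other cells. Summed capillary markers averaged 11949 CPM in blood endothelial wells of replicate 1 and 2983 CPM in those of replicate 2, and 12601 and 1934 CPM in artery-like wells. *Rgs5*, a gene of pericytes, had a read in 100% of the blood endothelial wells of replicate 1 and in 63.4% of those of replicate 2, and after each well was thinned to 20000 reads these shares were 90.8% and 27.7%. *Ptprc*, a leukocyte gene, had a read in 1.37% and 1.12% of the same wells. Shares of wells with a read of a member are therefore given after thinning unless stated, where 1 read stands for 50 CPM (reads of a gene scaled to the total on genes of the well). Those of other genes named below are before thinning.

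The regulatory stretch before the start of *Klf2* and *Klf4* is shown because these are the members known to be induced by flow. The sequences are RefSeq's (GRCm38.p6, the build of the counts), read on the strand of the gene from 250 bases before its RefSeq start and ending before the annotated gene. The gene *Klf2* lies on the + strand of chromosome 8 (72319033 to 72321656) and *Klf4* on the - strand of chromosome 4 (55527143 to 55532466). Capitals mark a MEF2 site in *Klf2* and, in each gene, TGACG or its reverse complement, which is the core of a cyclic AMP response element.
Klf2, chr8:72318812-72319032: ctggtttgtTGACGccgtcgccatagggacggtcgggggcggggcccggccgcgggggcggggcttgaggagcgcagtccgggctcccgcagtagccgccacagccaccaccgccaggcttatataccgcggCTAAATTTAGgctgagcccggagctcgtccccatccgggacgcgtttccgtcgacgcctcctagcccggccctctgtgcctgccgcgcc
Klf4, chr4:55532476-55532725: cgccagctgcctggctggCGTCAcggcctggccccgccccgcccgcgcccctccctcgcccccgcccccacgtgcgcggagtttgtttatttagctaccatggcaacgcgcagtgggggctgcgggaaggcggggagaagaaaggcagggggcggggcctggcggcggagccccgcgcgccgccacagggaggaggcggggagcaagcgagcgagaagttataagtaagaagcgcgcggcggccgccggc

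The MEF2 site of *Klf2* lay 118 to 109 bases before the RefSeq start. Of the 7 members in the promoter table (*Klf10* was not in it), *Klf2* alone held a MEF2 site in the 250 bases searched on both strands, and 2.92% of 32851 promoters held one. The core (TGACG) was found in *Klf2*, *Klf4*, *Klf9* and *Klf13*, against 17.8% of all promoters, and the full palindromic cyclic AMP response element, which contains the core on both strands, in none of the 7 and in 1.55% of all. The CArG box, the site of serum response factor, was found in none of the 7 and in 1.47% of all. GC boxes (GGGCGG) were found in 6 of the 7, all but *Klf9*, against 32.7% of all promoters, and CACCC, the core to which KLFs themselves bind, in 5 of the 7, against 52% of all. A match is a run of letters and was not tested as a site.

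*Klf2* had the highest level per length of the 8 members in blood endothelial wells. Its mean was 257 CPM per kb of exon in replicate 1 and 238 in replicate 2, or 248 ± 13.8 (SD, n = 2). It was followed on the same scale by *Klf6* (97.4 ± 44.5), *Klf4* (69.2 ± 11.2) and *Klf10* (62.8 ± 11.6), whose order is not separated by their spread. *Klf7* (28.3 ± 7.84) and *Klf13* (24.4 ± 0.995) came next and lay within their spread of each other, and *Klf9* (14.9 ± 2.03) and *Klf3* (9.06 ± 1.32) were lowest. The plot of levels per length shows both replicates of each factor.

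**Figure D1:**
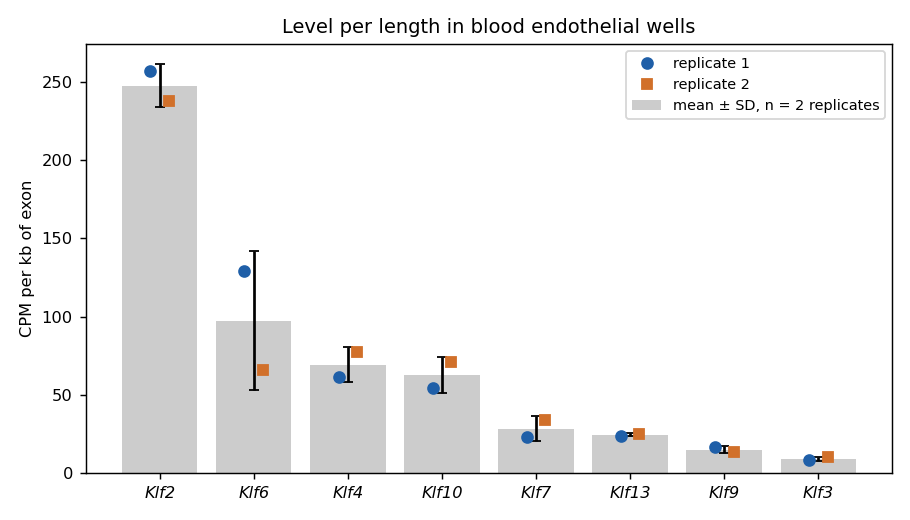
Mean level of the 8 Krüppel-like factors in blood endothelial wells, in CPM per kb of exon, with bars for the mean of 2 replicates, error bars for their SD and points for each replicate (292 and 268 wells). *Klf2* is at 257 and 238 and *Klf3* at 8.13 and 9.99 CPM per kb.

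Of the 9 other genes of the family, *Klf11*, a TGF-beta-induced factor, had the highest level, 59.2 and 33.5 CPM in the blood endothelial wells of replicates 1 and 2. *Klf16* and *Klf8* were below 10 CPM in both replicates. *Klf1*, *Klf14* and *Klf17* had no read in the 211 and 78 wells of the 3 blood endothelial classes, so that up to 1.42% and 3.85% of wells could hold one by counting error alone. In the wider set of 292 and 268 blood endothelial wells, *Klf1* and *Klf17* were each read in 0.373% of replicate 2 wells, and *Klf14* in none. *Klf5*, a factor of epithelia and smooth muscle, also had none in the 3 classes, a read in 0.342% and 1.12% of the wider set and in 1 of 22 and 2 of 111 lymphatic-like wells. No gene among the 4 of these 9 that could be tested passed the threshold in any comparison.

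Levels differed strongly between wells of a class. In the blood endothelial wells of replicate 2, *Klf6* had a median of 15.6 CPM, a mean of 290 CPM and a maximum of 4524 CPM, and *Klf10* a median of 5.27, a mean of 297 and a maximum of 11440 CPM. *Klf13*, a GC-box factor first described in T cells, had medians of 136 and 74.7 CPM against means of 178 and 189 CPM. After thinning, a read of *Klf13* was found in 80.8% of 292 wells of replicate 1 (95% exact binomial interval 75.8 to 85.2) and 63.4% of 235 wells of replicate 2 (56.9 to 69.6). *Klf2* had a read in 83.9% (79.2 to 87.9) and 61.7% (55.2 to 68.0) of the same wells, and *Klf6* in 82.5% (77.7 to 86.7) and 50.2% (43.6 to 56.8). *Klf9*, a glucocorticoid-responsive member, had the lowest shares, 34.9% (29.5 to 40.7) and 25.5% (20.1 to 31.6). Such intervals cover counting error only, because wells of a plate share the digestion, the sort and the library preparation. A thinned blood endothelial well held a read of 4.8 of the 8 members on average in replicate 1 and of 3.7 in replicate 2, and 1 well in each replicate held none.

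The question for the classes is whether a factor differs along the vascular tree, in which arteries, capillaries and veins carry blood at different shear and lymphatics carry lymph. Counts were summed per class and replicate, and the sums were fitted in edgeR (quasi-likelihood F-test, replicate blocked) at an adjusted p of 0.05 (Benjamini-Hochberg over 14978 genes). Between artery-like and vein-like wells 0 of the 8 members passed, where 2 genes passed in all (0.0134%). At an unadjusted p under 0.05 there were 2 members, *Klf6* and *Klf7*, where 6.9% of all genes lay under it. On the scale of the summed counts (TMM-scaled CPM), the same 2 members were those whose 2 artery-like levels lay without overlap below the 2 vein-like levels, and 38.6% of all genes were without overlap in either direction. Of other tools, DESeq2's Wald test called 0 members and 4.57% of all genes, and limma on mean log2(CPM + 1) called 4.89% of all genes, 659 of 733 of them lower, and among the members *Klf7* and *Klf10*, both lower in artery-like wells (log2 fold changes on that scale of -2.72 and -2.79). Vein-like wells were the deepest class in both replicates, with medians of 203671.5 and 253620.5 reads, against 118521 and 164453.5 in artery-like wells. The part of depth in limma's calls was not tested.

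*Klf2*, the flow-induced factor that sustains the quiescent endothelium, was at a similar level in the 3 blood endothelial classes of replicate 1. It was lowest in the capillary-like wells of replicate 2. Its mean was 422 and 549 CPM per well in artery-like wells of replicates 1 and 2, 442 and 35.8 in capillary-like, 496 and 658 in vein-like and 326 and 197 in lymphatic-like wells. All but one of these 8 values lay between 197 and 658 CPM, and the capillary-like wells of replicate 2 were 12.4-fold below those of replicate 1. There, 33.3% of 18 thinned wells held a read (13.3 to 59.0), against 83.7% of 141 in replicate 1 (76.5 to 89.4). These capillary-like wells of replicate 2 had a median of 82530.5 reads and a median endothelial marker sum of 5081 CPM. Both were the lowest of the 3 blood endothelial classes in either replicate. The low value of *Klf2* differed between settings. It was 336 CPM in replicate 2 with classes from marker scores, 356 CPM in the 68 wells of that class at the next higher resolution of the clustering and 203 CPM at the 300 CPM limit for genes of other cells, a setting that was clustered at resolution 0.8 in place of 0.6. It was 37.8 CPM at the 10 CPM limit, 43.1 with scran size factors, 55.6 in thinned wells and 18.4 and 47.4 on plates A and B. The summed immediate early genes also had their lowest mean in these wells, at 4253 CPM against 13618 CPM in replicate 1. By median these wells had 2587 CPM, and lymphatic-like wells of replicate 2 had less, at 1546 CPM. The part of the early genes in the result was not tested. The artery-like minus vein-like difference of *Klf2* was -0.11 (log2, SE 0.80, adjusted p = 1.0), with -0.22 and -0.06 in the replicates.

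*Klf4*, the second flow-induced factor, ran from 61.2 to 657 CPM. It was 108 and 657 CPM in artery-like wells, 172 and 61.2 in capillary-like, 261 and 190 in vein-like and 250 and 284 CPM in lymphatic-like wells of replicates 1 and 2. The artery-like replicates lay on both sides of the vein-like ones, and the highest value rested on plate B of replicate 2, with 886 CPM against 167 CPM on plate A and a single well at 7848 CPM. The artery-like minus vein-like difference was accordingly -0.95 in replicate 1 and 1.69 in replicate 2.

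*Klf6*, a factor induced by vascular injury, was highest in vein-like wells, at 678 and 587 CPM, and lower in artery-like wells, at 339 and 138 CPM. Capillary-like wells had 560 and 108 CPM and lymphatic-like wells 485 and 340 CPM. The artery-like and vein-like values did not overlap, and the difference was -1.27 (log2, SE 0.57, unadjusted p = 0.049 and adjusted p = 0.699 by edgeR), with -0.72 and -1.78 in the replicates. It was -0.38 in wells below the median immediate early sum, -0.15 with classes from marker scores and -0.36 at the next higher resolution. In replicate 1 vein-like wells were not the highest with marker scores (525 CPM, against 556 in artery-like and 540 in capillary-like wells), at the 300 CPM limit (497, against 566 in capillary-like wells) or below the median immediate early sum (459, against 539 in capillary-like wells).

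*Klf7*, a factor known from neurons and adipocytes, was lower in artery-like than in vein-like wells of both replicates. Artery-like wells had 85.3 and 80.2 CPM, capillary-like 199 and 260, vein-like 206 and 309 and lymphatic-like 87.5 and 196 CPM. Both artery-like values lay below those of the other classes, but the one of replicate 1 was 7.62 CPM on plate A and 132 CPM on plate B, above the 87.5 CPM of lymphatic-like wells. Nor did artery-like wells lie below all others at the 300 CPM limit (181 CPM in replicate 1, against 140 in lymphatic-like and 190 in vein-like wells), with marker scores (190 and 216 CPM, against 168 and 156 in capillary-like wells and 191 and 324 in vein-like wells) or at the next higher resolution (94.4 and 141 CPM). Against vein-like wells the difference was -1.57 (SE 0.64, unadjusted p = 0.034 and adjusted p = 0.699 by edgeR), -1.39 and -1.80 in the replicates, and -2.48 in wells below the median immediate early sum. After thinning, 43.8% of 16 and 31.8% of 22 artery-like wells held a read, against 77.8% of 54 and 72.2% of 36 vein-like wells. It was smaller with classes from marker scores (-0.39) and at the next higher resolution (-0.94).

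*Klf10*, an early gene of TGF-beta signalling, was also high in vein-like wells. It reached 361 and 597 CPM there, 454 and 161 CPM in artery-like, 166 and 82.9 in capillary-like and 102 and 125 CPM in lymphatic-like wells. The artery-like replicates differed 2.83-fold and overlapped the vein-like ones, and by edgeR the artery-like minus vein-like difference was -0.20 (SE 0.76, adjusted p = 0.998), with 0.96 in replicate 1 and -1.64 in replicate 2. *Klf13* had 8 values between 153 and 243 CPM, of which the highest, in capillary-like wells of replicate 2, was 52.2 CPM on plate A, 371 on plate B and 471 with scran size factors. *Klf3*, a repressor that recruits CtBP, ran from 36.3 to 203 CPM and *Klf9* from 19.7 to 156 CPM, with both extremes of *Klf3* in artery-like wells.

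**Figure D2:**
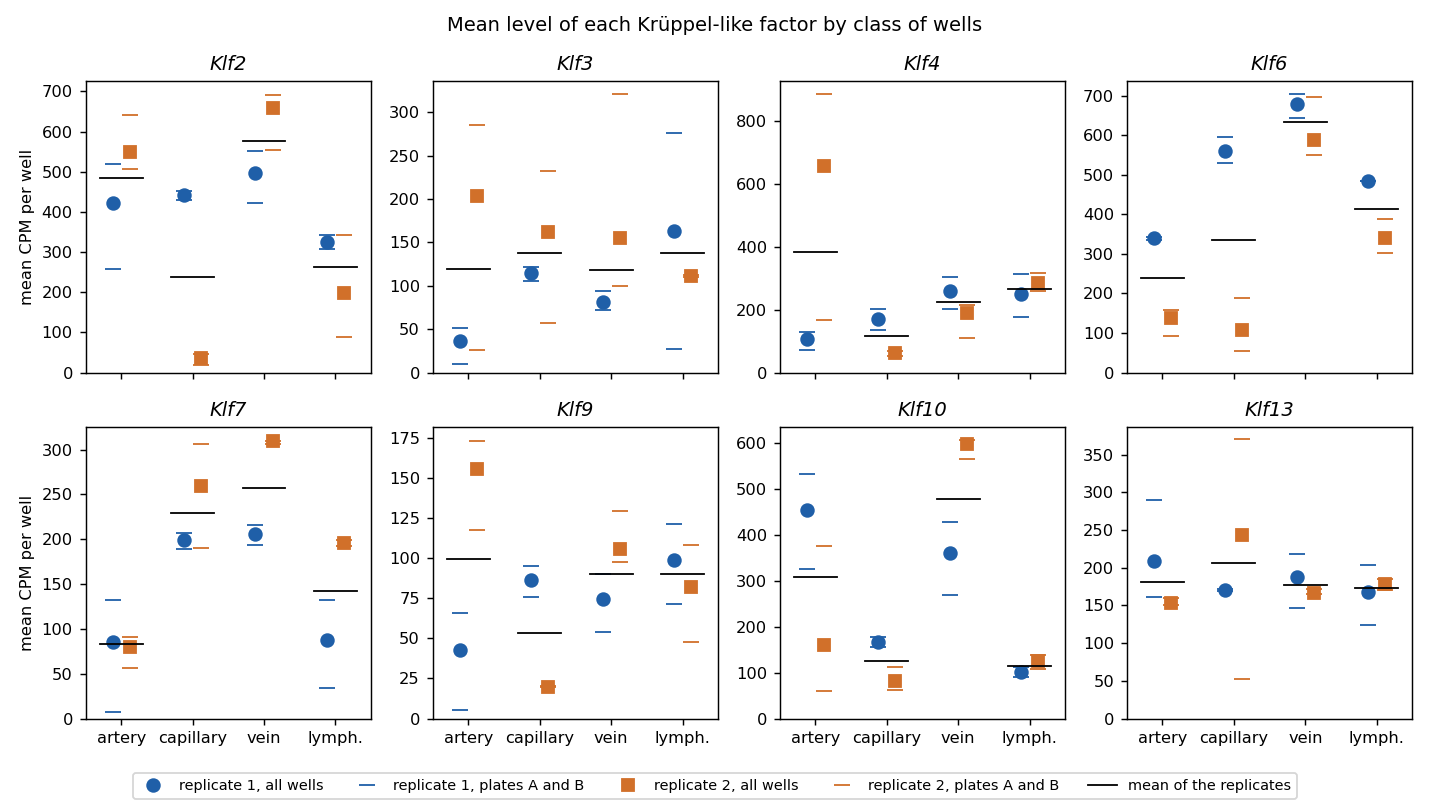
Mean CPM per well of each factor in artery-, capillary-, vein- and lymphatic-like wells, as filled points for each replicate, dashes for its plates A and B and a line for the mean of 2 replicates; each panel has its own vertical axis from 0. *Klf6* and *Klf7* are lower in both artery-like than in both vein-like values, and *Klf2* drops to 35.8 CPM in the capillary-like wells of replicate 2.

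**Figure D3:**
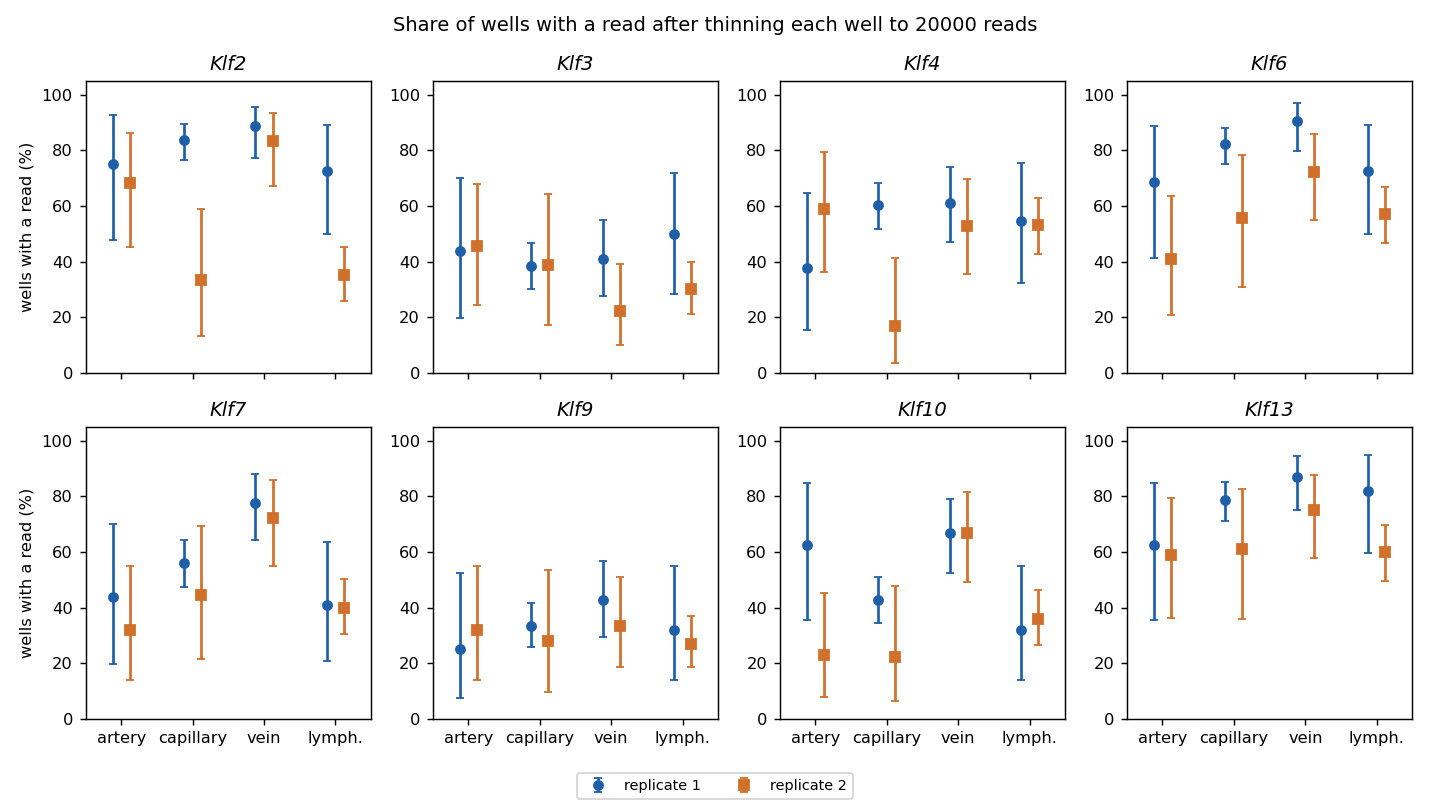
Percent of wells with a read of each factor after thinning to 20000 reads, by class and replicate, with exact 95% binomial intervals. *Klf7* is at 43.8% and 31.8% of artery-like and 77.8% and 72.2% of vein-like wells.

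Capillary-like wells were compared with the mean of the artery-like and vein-like wells. Markers of other cells were above 0 in this comparison for 7 of 7 fibroblast genes (median 2.60) and 5 of 5 keratinocyte genes (median 6.45), none of which passed, and their part in the members' values was not tested. The mean summed fibroblast level was 567 and 233 CPM in capillary-like wells and between 39.8 and 130 CPM in artery-like and vein-like wells, and the keratinocyte level was 18.9 and 39.5 CPM against 0 to 117 CPM. The median fibroblast level over capillary-like wells was only 100.4 and 42.8 CPM, and 1 well of replicate 1 reached 37981 CPM. By edgeR 0 of the 8 members and 0 of all genes passed (0%), and before adjustment 644 genes lay under 0.05. With the Wald test of DESeq2 and with limma, 233 (1.56%) and 14 genes (0.0935%) and 0 members passed. *Klf10* alone lay under an unadjusted p of 0.05, as did 4.3% of all genes. On the scale of the summed counts (TMM-scaled CPM) it was also the member whose capillary-like levels, 176 and 114, lay without overlap below all artery-like and vein-like levels, the lowest of which was 189, and 10.6% of genes were without overlap in one direction or the other. The mean CPM per well did overlap, at 166 in capillary-like wells of replicate 1 and 161 in artery-like wells of replicate 2. Its difference was -1.56 (SE 0.68, unadjusted p = 0.046 and adjusted p = 0.957 by edgeR), with -1.32 and -1.55 in the replicates. It turned to 2.72 in wells below the median immediate early sum, a subset of 8 and 11 artery-like wells in which the mean of *Klf10* was 725 and 2.18 CPM. *Klf7* went the other way, at 1.04 (SE 0.53, adjusted p = 0.957), with 0.69 and 1.396 in the replicates, but at -0.31 with classes from marker scores. *Klf2* was at -1.34 (SE 0.80), but at 0.03 in replicate 1 and -3.66 in replicate 2. The median difference of the 8 members was -0.69 and that of all genes 0.06.

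Lymphatic-like wells were compared with the mean of the 3 blood endothelial classes. Again 0 of the 8 members passed by edgeR, where 139 genes did (0.928%), and 0 passed with DESeq2's Wald test or limma, which called 6.61% and 4.49% of all genes. No member lay under an unadjusted p of 0.05, where 10.1% of genes did, and no member was without overlap, where 11.4% of genes were. *Klf10* had the largest difference, -1.18 (SE 0.65, adjusted p = 0.628), with -1.98 in replicate 1 and -0.39 in replicate 2, and it turned to 2.04 in wells below the median immediate early sum. *Klf4* was at 0.52 (SE 0.60), with 0.59 and 0.76. Markers of other cell types also differed here. *Col1a1*, a collagen gene of fibroblasts, passed the threshold (3.34, SE 0.61, adjusted p = 0.042 by edgeR), and 7 of 7 fibroblast and 5 of 5 keratinocyte genes were above 0, with medians of 3.14 and 8.47. In the lymphatic-like wells of replicates 1 and 2 the mean summed level was 33.5 and 1.71 CPM for 6 leukocyte genes and 406 and 97.6 CPM for 10 mural genes. It was 1264 and 15.6 CPM for 6 keratinocyte genes and 1468 and 356 CPM for 7 fibroblast genes, but the medians over wells were 0 and 0 and 126 and 27.6 CPM, and in replicate 1 single wells reached 27517 and 19850 CPM for these lists. In the 3 blood endothelial classes the mean sums ran up to 2.32, 1553, 117 and 567 CPM for leukocyte, mural, keratinocyte and fibroblast genes. Their part in these values was not tested.

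**Figure D4:**
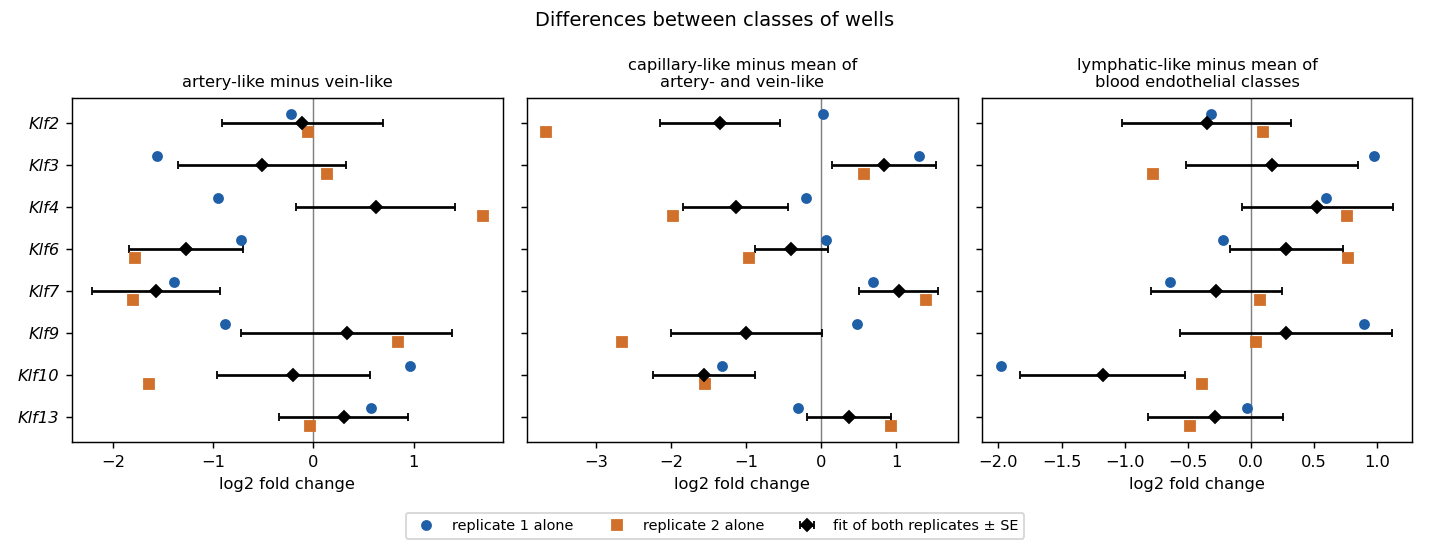
Log2 fold change of each factor in 3 comparisons between classes, as a diamond with SE for the edgeR fit of both replicates and as points for each replicate alone. *Klf7* and *Klf6* lie below 0 in both replicates of the first panel and *Klf10* in both of the second, and none passes the adjusted threshold.

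Among the genes around the factors in the flow pathway, *Pecam1* passed the threshold, in the comparison in which 0.928% of all genes did. *Pecam1*, 1 of 14 flow sensors and transducers, encodes an adhesion molecule of the junctional mechanosensory complex and was among the genes used to keep wells. It was lower in lymphatic-like wells (-1.47, SE 0.25, adjusted p = 0.032 by edgeR), at 1164 and 772 CPM against 1681 to 3492 CPM in the other classes. Of 8 endothelial markers, 5 were below 0 in the same comparison (median -0.83), and *Esam*, a junctional adhesion molecule, was also lower (-2.76, SE 0.46, adjusted p = 0.029 by edgeR). The other 13 sensors did not pass in any comparison. *S1pr1*, a receptor active under flow, and *Kdr*, the VEGF receptor, averaged 658 and 579 CPM over the classes. None of the 13 genes of the MEKK3-ERK5-MEF2 and CCM pathway passed. The highest of them were *Heg1*, a receptor of the CCM complex, at 547 CPM, *Mef2c* at 220, the class IIa deacetylase *Hdac7* at 164 and *Mef2a* at 156 CPM. In the capillary-like comparison 11 of these 13 were above 0, with a median of 0.73 where all genes had 0.06.

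Of 12 genes known to be raised by laminar flow or by *Klf2* and *Klf4*, 11 could be tested and none passed. In artery-like against vein-like wells 7 of the 11 were above 0, with a median of 0.27 beside -0.32 for all genes. *Thbd*, the anticoagulant receptor thrombomodulin, was on the other side, with 646 and 827 CPM against 232 and 315 CPM in artery-like wells (-0.78, SE 0.53, adjusted p = 0.795). *Nos3*, the endothelial nitric oxide synthase, was at 0.62 (SE 0.83) in the same comparison. Of 11 genes known to be lowered, 9 could be tested, none passed, and 7 were below 0 in artery-like against vein-like wells, with a median of -2.66 beside -0.32 for all genes. *Icam1*, an adhesion molecule for leukocytes, had the strongest of these differences by p, at 137 and 11.5 CPM in artery-like and 1292 and 1407 CPM in vein-like wells (-5.06, SE 1.07, unadjusted p = 0.00088, adjusted p = 0.425). *Edn1*, the gene of endothelin-1, was opposite, at 417 and 1123 against 277 and 46.4 CPM (3.24, SE 1.42, adjusted p = 0.699). The list was named by what flow does to its genes, and flow was not measured here.

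Genes known to rise on dissociation were read in all classes, at unequal levels. No undigested sample was analysed here, so expression in the vessel and a response to the preparation cannot be told apart. The summed level of 21 immediate early genes averaged 32307 and 40041 CPM in vein-like wells of replicates 1 and 2, 11955 and 18985 in artery-like, 13618 and 4253 in capillary-like and 12847 and 6614 CPM in lymphatic-like wells. Vein-like wells were thus the highest in both replicates, as they were by mean CPM per well for *Klf2*, *Klf6* and *Klf7* and, in replicate 2, for *Klf10*. For *Klf7* this did not hold on the scale of the summed counts, where capillary-like wells of replicate 2 had 388 and vein-like wells 274 TMM-scaled CPM. Capillary-like wells also exceeded vein-like wells in replicate 1 below the median immediate early sum (187 and 149 CPM) and at the 300 CPM limit (196 and 190 CPM). With scran size factors they did so in replicate 2 (349 and 307 CPM). For *Klf2* vein-like wells were not the highest in replicate 1 with marker scores (595 CPM in artery-like and 436 in vein-like wells) or at the next higher resolution (526 and 496 CPM). The same held below the median immediate early sum (522 and 354 CPM), and on plate A capillary-like wells had 429 and vein-like wells 421 CPM. The part of the early genes in the class levels was not tested beyond the split by their sum. Of the 21 genes, 19 were below 0 in artery-like against vein-like wells and 21 in the capillary-like comparison, with medians of -0.95 and -1.71, and none passed the threshold. The 12 heat shock genes summed to 5041 and 4692 CPM in vein-like wells and to between 2173 and 3857 CPM in the others. *Fos*, which had a read in 100% and 99.6% of blood endothelial wells, was at 6486 and 6659 CPM in vein-like wells.

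Among blood endothelial wells of a plate, *Klf2* had the highest mean correlation of the members with the immediate early sum. Spearman's rho, in wells thinned to 20000 reads, was 0.51, 0.36, 0.43 and 0.54 on the 4 plates (132, 160, 119 and 116 wells), with a mean of 0.46. The genes compared were 2114 with a read in at least 20% of wells of every plate, members included and immediate early genes left out. Their median rho was 0.02, and *Klf2* lay above 99.4% of them. *Klf6* (mean 0.24) and *Klf4* (0.22) were positive on all 4 plates, as was *Klf13* (0.11), over all blood endothelial wells of a plate. Within classes these did not all hold: *Klf6* was at 0.06 in the 141 capillary-like wells of replicate 1, 0.04 in artery-like and -0.17 in lymphatic-like wells of replicate 2, *Klf4* at -0.11 in capillary-like wells of replicate 2, and *Klf13* ran from -0.20 to 0.32. *Klf10* averaged 0.21 but ran from -0.06 to 0.50, the last on plate A of replicate 2, where it was above the 0.43 of *Klf2*. *Klf3* (-0.01), *Klf7* (0.03) and *Klf9* (0.06) were not of 1 sign over the plates. Wells of a plate share the digestion, the sort and the library preparation, so these values are descriptions and carry no p.

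**Figure D5:**
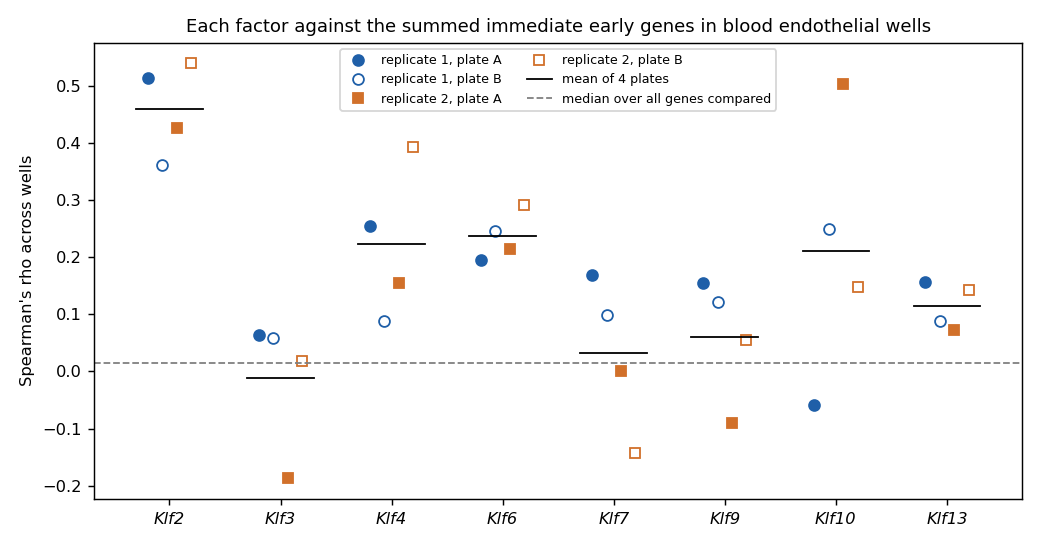
Spearman's rho across thinned blood endothelial wells between each factor and the summed immediate early genes, 1 point per plate, with a line for the mean of 4 plates and a dashed line for the median over the genes compared (0.02). *Klf2* is the highest by mean, at 0.46, and *Klf3* the lowest, at -0.01.

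Within classes the same direction was seen for *Klf2* in 7 of 8 class and replicate groups. In vein-like wells rho was 0.57 and 0.34 in replicates 1 and 2, in capillary-like wells 0.42 and 0.58, in lymphatic-like wells 0.28 and 0.34, and in artery-like wells -0.03 and 0.66. When the wells of each class were split at the median of the immediate early sum, *Klf2* in the wells below and above it averaged 354 and 638 CPM in vein-like wells of replicate 1, and 536 and 779 CPM in replicate 2. In capillary-like wells of replicate 1 these values were 307 and 580 CPM. In artery-like wells of replicate 1 the order was opposite, with 522 CPM below and 321 CPM above the median, and in capillary-like wells of replicate 2 both values were low, at 10.0 and 61.6 CPM. *Klf4* was higher above the median in 7 of 8 groups and *Klf6* in 6, and the other members in 4 or 5. With the heat shock sum in place of the immediate early sum, the mean rho was 0.26 for *Klf2*, 0.13 for *Klf10*, 0.10 for *Klf6*, 0.09 for *Klf4* and between -0.06 and 0.04 for the others.

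The genes most like *Klf2* across blood endothelial wells were *Zfp36*, an RNA-binding protein that destabilizes cytokine mRNAs (mean rho over 4 plates 0.43), *Fos* (0.42) and *Egr1* (0.40), all of them in the immediate early list. For *Klf4* they were *Fosb* (0.22), *Jund* (0.20) and *Fos* (0.20), and for *Klf6* *Rcan1*, an inhibitor of calcineurin (0.25), *Socs3* (0.24) and *Rhob* (0.23). *Klf10* was nearest to *Atf4*, a factor of the integrated stress response (0.28), *Irf1* (0.25) and the gene model *Gm17334* (0.25). For *Klf3*, *Klf7*, *Klf9* and *Klf13* the highest means were only 0.17, 0.20, 0.17 and 0.18, for *Zfp638*, *Pim3*, *Dgke* and *Swi5*, which is weak in counts this sparse. Between members, the highest mean rho was 0.18 for *Klf2* with *Klf4*, 0.17 for *Klf2* with *Klf6* and 0.16 for *Klf4* with *Klf6*, and these 3 pairs were positive on all 4 plates.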

How the data were processed

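The authors aligned single Smart-seq2 reads to mm10 (TopHat2 2.1.1), took out duplicates (SAMtools 0.1.18) and assigned the remaining reads to genes (Subread 1.4.6-p5). Their deposited tables hold these counts, not normalized, for each well. The annotation release they used is not given in the sources used here. Symbols came from GENCODE (mm10) for 46005 of 46517 identifiers, and the 92 spike-ins stayed out of library sizes. Exon length is the union of exons.

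A well was kept with at least 600 reads, 500 to 8000 genes, a read of 2 of *Pecam1*, *Cdh5* and *Kdr* and less than 100 CPM of *Ptprc*, *Pdgfrb* and *Kcnj8*, and blood endothelial wells also had less than 100 CPM of *Lyve1* and *Prox1*. The study gives no level for this rule. Doublets were not called. With scran 1.30.0, size factors were estimated and 1000 variable genes chosen, and 15 principal components were clustered with leidenalg 0.10.2 at resolution 0.6, the lowest of a series that gave 10 wells of each of 4 classes in both replicates. A class needed 8 markers at least 1.25-fold higher. These naming limits were set after trial clusterings, when plate levels of the members had been seen but no level by class. The next higher resolution, the counts of members without overlap and the median over 32 class levels were added after the data were seen.

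Counts were summed per class and replicate (8 sums). A gene needed 10 counts in 2 sums, and the test was the quasi-likelihood F-test of edgeR 4.0.16 (TMM scaling, replicate blocked, with 3 degrees of freedom left). Within a replicate all classes were drawn from 1 pair of plates, so the replicate was blocked. Their deviations from the class means correlated at 0.058 to 0.0883. Alternatives used DESeq2 1.42.0, limma 3.58.1 and other filters and classes. The code was tested on simulated data. The members, the gene lists and the tests were chosen with earlier results of these data known. Genes named beside the members are those past a threshold, the 4 highest of a list by mean CPM or fewer, and the 3 most like each member or fewer. *Nos3*, *Klf5*, the family members without reads, *Ptprc* and *Rgs5* were named after their values were seen. Python 3.11.15 and R 4.3.3 were used.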

Additional observations from a re-analysis of the deposited data

Results flagged for a closer look

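Over the 4 plates, the mean CPM of *Klf4* in blood endothelial wells was 145 on plate A of replicate 1, against 222, 235 and 235 on the others, a gap of 0.849 of the whole range. *Klf10* was at 398 CPM on plate A of replicate 2, against 239, 219 and 206, a gap of 0.832 of the range. Chance alone gives such a gap in about 1 of 20 groups, and 16 were examined. 

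The members also had reads in the wells of an unnamed cluster that entered no comparison. In it 9 of 10 mural markers were higher than elsewhere, but none was among its 10 leading genes by fold. In replicate 2 its mean summed level of mural genes, 962 CPM, was below those of fibroblast (1741 CPM) and lymphatic genes (2513 CPM). The medians over these wells were 148 CPM for mural, 58.9 for fibroblast and 233 for lymphatic genes. Single wells reached 93983 CPM for fibroblast and 166300 CPM for lymphatic genes. The cluster held 37 wells in replicate 1 and 93 in replicate 2, with a median depth of 107251 and 20013 reads. In replicate 1 the shares of wells with a read were 94.6% for *Klf2* and for *Klf6*, 78.4% for *Klf4*, 75.7% for *Klf13*, 73.0% for *Klf7*, 67.6% for *Klf10*, 59.5% for *Klf9* and 48.6% for *Klf3*. In replicate 2 they were 61.3% for *Klf13*, 36.6% for *Klf2*, 31.2% for *Klf6*, 26.9% for *Klf7*, 25.8% for *Klf3* and for *Klf4*, and 19.4% for *Klf9* and for *Klf10*. Mean levels of *Klf2* there were 422 and 83.7 CPM. These shares were not thinned, and the 2 replicates differ in depth.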

How the results depend on the processing

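Of 240 tested values of a member's log2 fold change under an alternative, 208 kept their direction and their side of the threshold, 30 reversed and 2 newly passed it (*Klf7* and *Klf10*, artery-like against vein-like, with limma). Of 72 values without a test (1 replicate left out, or the limit of 10 CPM), 56 kept their direction and 16 reversed. The limit of 300 CPM also changed the clustering resolution, from 0.6 to 0.8, so its values combine both changes. The counts of genes called over all genes moved most. Artery-like against vein-like (2 genes) gave 685 with DESeq2's Wald test, 733 with limma, 93 with no low-count filter, 7 at 300 CPM, 0 with marker scores, 54 in thinned wells, 27 in wells below the median immediate early sum and 1 at the next higher resolution. The capillary-like comparison (0 genes) gave 233, 14 and 57 by the first 3 of these, 14 in thinned wells and 74 below that median. The lymphatic-like comparison (139 genes) gave 990, 672 and 614, then 56 with marker scores, 418 thinned, 267 below that median and 280 at the next higher resolution. Without the replicate block the counts were 4, 0 and 153, and the block changed no member's call, though *Klf3* turned to -0.13 without it in lymphatic-like wells. The cause of these shifts was not tested.

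The median of the 32 class levels of the members, 194 CPM, became 180.6 at 10 CPM and at 300 CPM, 182 at the next higher resolution, 172 below that median and 208 with scran size factors. The median over members of the mean rho with the immediate early sum, 0.163, became 0.064 with heat shock genes, 0.211 at 10 CPM, 0.032 within capillary-like and -0.044 within lymphatic-like wells.

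In artery-like against vein-like wells, signs reversed for *Klf2* (0.34 with marker scores, 0.059 at the next higher resolution), *Klf3* (0.60 limma, 1.18 at 10 CPM, 0.25 at 300 CPM, 0.084 marker scores, 0.064 thinned, 1.74 below median), *Klf4* (-1.06 limma), *Klf9* (-0.56 limma, -0.49 marker scores, -0.10 thinned), *Klf10* (0.13 marker scores, 0.020 next higher resolution) and *Klf13* (-0.62 limma, -0.014 marker scores, -0.33 thinned). In the capillary-like comparison they reversed for *Klf7* (-0.31 marker scores), *Klf10* (2.72 below median) and *Klf13* (-0.56 limma, -0.31 below median). In the lymphatic-like comparison they reversed for *Klf2* (0.25 at 10 CPM), *Klf3* (-0.77 at 10 CPM, -0.39 marker scores), *Klf4* (-0.30 below median), *Klf6* (-0.052 marker scores, -0.18 next higher resolution), *Klf7* (0.78 below median), *Klf9* (-0.19 limma, -0.22 at 300 CPM, -0.075 marker scores) and *Klf10* (2.04 below median).

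With either replicate left out there was no test. Values then ran, in artery-like against vein-like wells, from -1.56 to 0.14 for *Klf3*, -0.95 to 1.69 for *Klf4*, -0.88 to 0.84 for *Klf9*, -1.64 to 0.96 for *Klf10* and -0.030 to 0.57 for *Klf13*. In the capillary-like comparison they ran from -3.66 to 0.030 for *Klf2*, -0.96 to 0.067 for *Klf6*, -2.65 to 0.47 for *Klf9* and -0.30 to 0.94 for *Klf13*, and in the lymphatic-like one from -0.31 to 0.10 for *Klf2*, -0.78 to 0.97 for *Klf3*, -0.22 to 0.77 for *Klf6* and -0.64 to 0.071 for *Klf7*. The limit of 10 CPM left 1, 4, 9 and 1 wells of the classes in replicate 1, so its values rest on replicate 2 and carry no test.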
